A study of Mus musculus with 18 samples.

Results

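Peg3, H19, Igf2, Cdkn1c, Dlk1, Meg3, Mest, Peg10, Grb10 and Plagl1 are 10 imprinted genes among the 55487 genes that were counted in RNA from adult mouse liver. They were chosen by symbol, as well-known imprinted genes, at a time when the read counts and fold changes of these same livers were already known. Their differences between groups are therefore given as a description, with errors and with the call that the fit over all genes makes, but without p-values, and nothing is supported with those calls. Adjusted p-values are given only for genes outside the 10. The study asked whether raising lysosomal acid lipase, the enzyme encoded by LIPA that breaks down triglycerides and cholesteryl esters in lysosomes, alters fatty liver disease in mice. RNA was sequenced from 18 livers, 1 per mouse, in groups of 6 named CON-GFP, FPC-GFP and FPC-LIPA. All were male C57BL/6J mice, bought at 7 weeks of age, fed their diet for 16 weeks and fasted for 4 h before the livers were taken. CON-GFP mice ate a purified control diet, whereas the other 12 mice ate a diet rich in fructose, palmitate and cholesterol (FPC) with sugar in the drinking water. Every mouse had received an adeno-associated virus 1 week before the diet, carrying GFP in the first 2 groups and human LIPA in the last, driven by a promoter that is active in hepatocytes. Livers of LIPA mice on the control diet were not sequenced, so any effect of LIPA was seen on the FPC diet alone. Replicates were separate mice, and the errors measure the spread between mice.

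An imprinted gene is copied from only 1 parental allele, because a methylation mark laid down in the egg or the sperm keeps the other allele silent. Many imprinted genes act on growth, are highly active in the fetus and the placenta, and are turned down in the liver after birth. Among the 10 genes, Peg3, Peg10, Mest, Plagl1, Igf2 and Dlk1 are known to be active on the paternal allele, and H19, Cdkn1c, Grb10 and Meg3 on the maternal allele, although Grb10 uses the paternal allele in neurons. The mice were inbred, so their parental alleles have the same sequence and the counts hold no information on which allele was read.

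The 10 genes lie on 5 chromosomes of GRCm38. On chromosome 7 are Peg3 (ENSMUSG00000002265, 6703892 to 6730431), H19 (ENSMUSG00000000031, 142575529 to 142578143), Igf2 (ENSMUSG00000048583, 142650766 to 142666816) and Cdkn1c (ENSMUSG00000037664, 143458339 to 143461050). On chromosome 6 are Peg10 (ENSMUSG00000092035, 4747306 to 4760517) and Mest (ENSMUSG00000051855, 30723547 to 30748465). Dlk1 (ENSMUSG00000040856, 109452823 to 109463336) and Meg3 (ENSMUSG00000021268, 109541001 to 109571726) share a domain on chromosome 12. Grb10 (ENSMUSG00000020176, 11930508 to 12038683) is on chromosome 11 and Plagl1 (ENSMUSG00000019817, 13060504 to 13131694) is on chromosome 10. H19 and Meg3 are annotated as long noncoding RNAs.

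Plagl1 encodes a zinc finger protein, also called Zac1, that is known to bind the letters GGGGCCCC, and sequence around the starts of the genes was searched for them. RefSeq promoters (GRCm38.p6, 250 bases before to 50 after a start) were matched for 7 of the 10 genes, with 14 windows in all, and none was matched for H19, Cdkn1c and Peg10. The motif reads the same on either strand. It was present in 1.08% of 32851 promoters and in 1 of the 14 windows, that of Peg3. The Peg3 window is shown because Peg3 had the highest counts of the 10 genes and a level without overlap between the diets. It lies on the minus strand at chr7:6730370-6730669, and the motif, in capitals, begins at base 50.
Peg3 promoter: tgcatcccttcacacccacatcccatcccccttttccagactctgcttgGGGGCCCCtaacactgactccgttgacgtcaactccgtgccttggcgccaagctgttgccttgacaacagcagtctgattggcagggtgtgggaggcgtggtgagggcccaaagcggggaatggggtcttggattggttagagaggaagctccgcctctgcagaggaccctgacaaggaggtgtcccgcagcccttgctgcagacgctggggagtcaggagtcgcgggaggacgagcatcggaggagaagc
The window holds 13 CG dinucleotides, the sites at which imprinting marks are written, against a median of 7 over all promoters. The other windows of these genes hold from 1 (Meg3) to 45 (Grb10). DNA methylation was not measured.

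Of the 10 genes, 4 also carry microRNA genes, namely H19, Igf2, Meg3 and Mest, with 9 mature microRNAs and 9 different seeds. Those of H19 and Mest are shown, since both host RNAs differed between groups. The seed (bases 2 to 8) is in capitals, and the sequences and positions are from RefSeq (GRCm38.p6). The H19 pair lies in an exon of H19 on the minus strand, at chr7:142577112-142577133 and chr7:142577078-142577099, and the Mest pair in an intron on the plus strand, at chr6:30741314-30741336 and chr6:30741354-30741375.
mmu-miR-675-5p (H19): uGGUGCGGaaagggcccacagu
mmu-miR-675-3p (H19): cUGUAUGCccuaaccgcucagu
mmu-miR-335-5p (Mest): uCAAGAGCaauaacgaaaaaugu
mmu-miR-335-3p (Mest): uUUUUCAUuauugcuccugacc
The libraries did not measure mature microRNAs, and the rows of the microRNA genes hold 0 counts in all 18 libraries.

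Libraries held from 16632146 to 37739301 counts. Genes were compared with edgeR's quasi-likelihood test after removal of genes with low counts and were called differentially expressed (DE) at a change of at least 2-fold and a Benjamini-Hochberg adjusted p under 0.05. Levels are given in CPM, read counts scaled to a common library size with TMM, or in CPM per kilobase of exon (RPKM) where genes are set beside each other. Cytosolic ribosomal protein genes took 1.44 to 2.54% of the counts in the CON-GFP and FPC-GFP libraries, 2.16 to 2.95% in FPC-LIPA 31, 33 and 34, and 6.48 to 8.15% in FPC-LIPA 36, 37 and 39. The sample sheet numbers of FPC-LIPA 37, FPC-GFP 20 and CON-GFP 1 and 2 lie apart from 55 to 68, those of the other libraries. The row of mouse Lipa (202 to 406 CPM) does not show the human transgene and cannot check the LIPA label. In RNA of whole liver, fewer cells of a type and less RNA per cell cannot be told apart.

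The 10 genes were at low levels in these livers. On the RPKM scale, the means over 18 livers were 1.15 for Cdkn1c, 1.09 for Peg3 and 1.01 for Mest, and from 30.1 to 32.8% of the tested genes had a lower level. Grb10 (0.327 RPKM), H19 (0.324 RPKM) and Peg10 (0.321 RPKM) followed at nearly the same mean level, above Plagl1 (0.116 RPKM) and Meg3 (0.0350 RPKM). In CON-GFP livers Cdkn1c had the highest level (0.758 RPKM), then Mest (0.432 RPKM) and Peg3 (0.382 RPKM). In FPC-GFP livers the order of the first 3 was Peg3 (1.54 RPKM), Cdkn1c (1.03 RPKM) and Mest (0.806 RPKM), and in FPC-LIPA livers it was Mest (1.78 RPKM), Cdkn1c (1.67 RPKM) and Peg3 (1.34 RPKM).

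Igf2, the main fetal growth factor of the family, had 0 counts in all 18 libraries. A count of 0 allows a level of up to 3 counts. Without the TMM factor that is 0.0795 CPM in FPC-LIPA 36 and 0.180 CPM in FPC-LIPA 37. With TMM, as for the other CPM values, it is 0.238 CPM in FPC-LIPA 37. In the GENCODE M21 annotation, Igf2 shares 3596 exon bases (62.8% of its exons) with Gm49394 on the same strand, whose row also holds 0 counts. How reads over overlapping genes were counted is not given in the sources used here, so the 0 may belong to the counting. Dlk1, which encodes a transmembrane ligand of the Notch family made by fetal hepatoblasts, had 0 to 5 counts per library and 19 in all. Neither gene was tested, and no fold change is given for them.

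Of the 10 genes, 8 passed the filter on low counts in the comparisons of FPC-GFP with CON-GFP and of FPC-LIPA with FPC-GFP, and 7 between FPC-LIPA and CON-GFP, where H19 did not pass. With the FPC diet Peg3, Peg10 and H19 (3 genes) were DE, all with a higher level in FPC-GFP than in CON-GFP. H19 (2 to 9 counts per CON-GFP library) and Peg10 (4 to 15 counts) passed the filter only through the FPC-GFP livers, where they were high. DE genes made up 7.20% of 14307 tested genes, and DE genes with a higher level in FPC-GFP 4.76%. Since the genes were chosen with these values known, nothing is read from that difference. The groups did not overlap for the same 3 genes, which held for 10.6% of all tested genes. In all, 7 of the 8 genes had a positive log2 fold change, with a median of 0.89 against 0.01 over all tested genes.

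**Figure D1:**
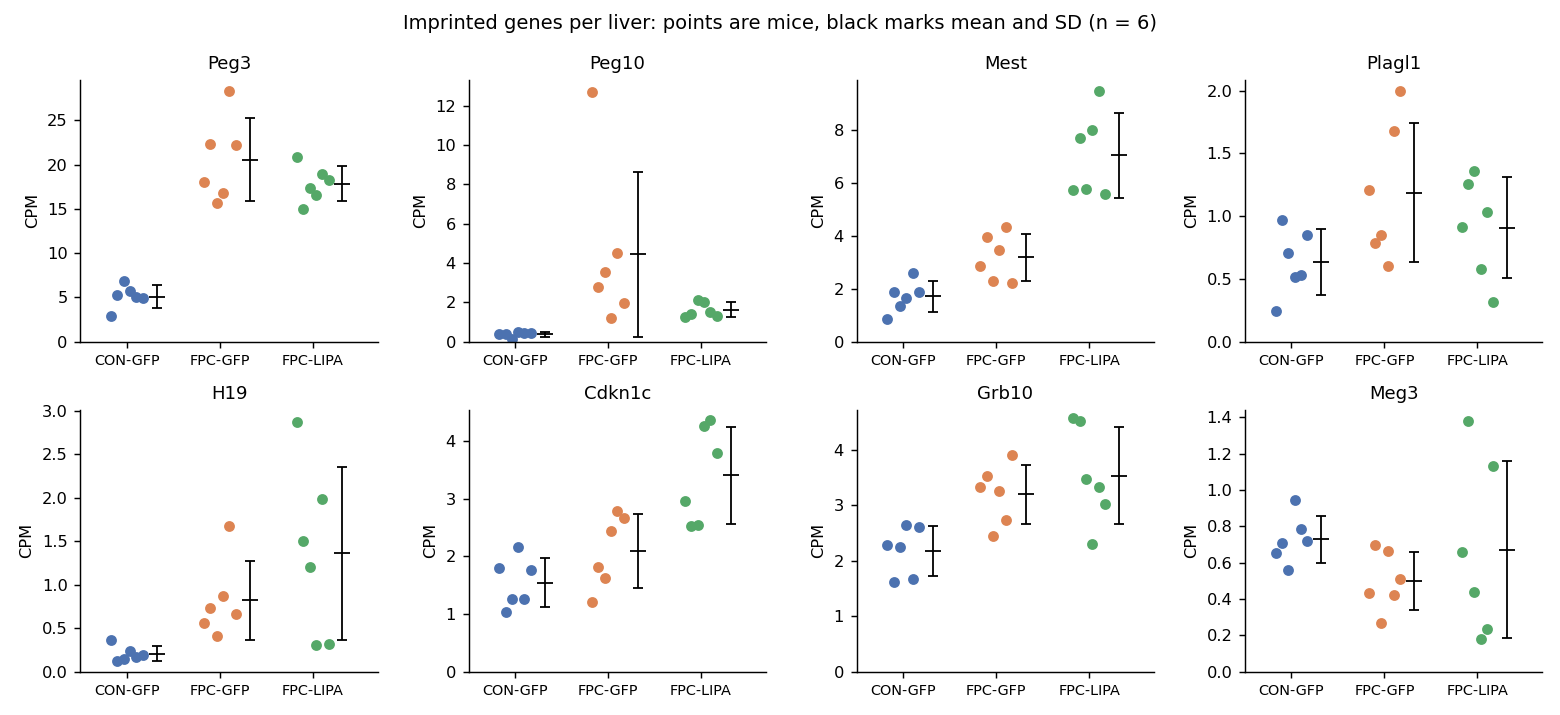
Level of 8 imprinted genes in each liver (CPM on the vertical axis, each panel with its own scale from 0; coloured points are mice, black marks the mean and SD of 6 mice). The FPC-GFP and FPC-LIPA points of Peg3 all lie at or above 15.0 CPM and the CON-GFP points at or below 6.82 CPM, Mest has its highest points in FPC-LIPA, and FPC-GFP 11 stands alone in Peg10 at 12.7 CPM.

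Peg3 encodes a large zinc finger protein that binds DNA and is known for its part in growth and in maternal behaviour. Its level was 2.85, 5.22, 6.82, 5.71, 5.01 and 4.95 CPM in CON-GFP 1, 2, 3, 6, 7 and 8. It was 18.0, 22.3, 15.6, 16.8, 28.3 and 22.2 CPM in FPC-GFP 11, 12, 13, 16, 19 and 20. Every FPC-GFP liver was above every CON-GFP liver, and the lowest FPC-GFP value was more than 2-fold above the highest CON-GFP value. The mean went from 5.10 ± 1.30 CPM (SD, n = 6) to 20.5 ± 4.72 CPM (n = 6), a log2 fold change of 2.00 (SE 0.19, 95% interval 1.59 to 2.41). In FPC-LIPA 31, 33, 34, 36, 37 and 39 the level was 20.8, 15.0, 17.4, 16.6, 18.9 and 18.2 CPM. These values lay inside the range of FPC-GFP or just under it, with a log2 fold change of -0.20 (SE 0.17, interval -0.57 to 0.16) against FPC-GFP and of 1.77 (SE 0.19) against CON-GFP. Peg3 was thus 4.0-fold higher in FPC-GFP and 3.42-fold higher in FPC-LIPA than in CON-GFP. It also varied less between the livers of FPC-LIPA (CV 11.1%) than in FPC-GFP (23.0%) or CON-GFP (25.5%), a difference in spread that was not tested.

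Peg10 is a gene derived from a retrotransposon that the placenta needs and that is known to be active in fetal and regenerating liver. It had 0.367, 0.387, 0.149, 0.473, 0.420 and 0.456 CPM in the CON-GFP livers (4 to 15 counts). In the FPC-GFP livers it had 12.7, 2.76, 3.56, 1.20, 4.50 and 1.95 CPM (38 to 407 counts), in the order of the mice given for Peg3. All FPC-GFP livers were above all CON-GFP livers, but FPC-GFP 11 had nearly 3-fold the level of the next liver, and the CV was 94.5%. The log2 fold change was 3.54 (SE 0.53, interval 2.41 to 4.66), the largest of the 10 genes in this comparison, and it was 2.88 without FPC-GFP 11. FPC-LIPA livers had 1.26, 1.41, 2.14, 2.04, 1.51 and 1.31 CPM, a narrow range (CV 23.8%) that overlapped with the lower FPC-GFP livers. Group means were 0.375 ± 0.118 CPM (CON-GFP), 4.44 ± 4.20 CPM (FPC-GFP) and 1.61 ± 0.383 CPM (FPC-LIPA). Against FPC-GFP, the log2 fold change in FPC-LIPA was -1.46 (SE 0.46, interval -2.44 to -0.47), and without FPC-GFP 11 it was -0.79 (SE 0.33) and not DE. Against CON-GFP it was 2.06 (SE 0.32, interval 1.38 to 2.74), with no overlap.

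H19 is a noncoding RNA that is abundant in fetal liver and lies beside Igf2. It had 0.367, 0.129, 0.149, 0.236, 0.168 and 0.196 CPM in CON-GFP, from only 2 to 9 counts per library. In FPC-GFP it had 0.561, 0.728, 0.406, 0.873, 1.68 and 0.666 CPM, from 12 to 56 counts. The groups did not overlap, although the highest CON-GFP liver (0.367 CPM) and the lowest FPC-GFP liver (0.406 CPM) were close. The log2 fold change was 1.95 (SE 0.39, interval 1.12 to 2.78), or 1.61 to 2.18 when each library was left out in turn. FPC-LIPA livers were split, with 2.87, 1.50, 1.20 and 1.98 CPM in FPC-LIPA 31, 33, 34 and 37, and 0.304 and 0.316 CPM in FPC-LIPA 36 and 39. Those last livers lay within the CON-GFP range, and the log2 fold change against FPC-GFP was 0.72 with an interval from -0.39 to 1.83.

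**Figure D2:**
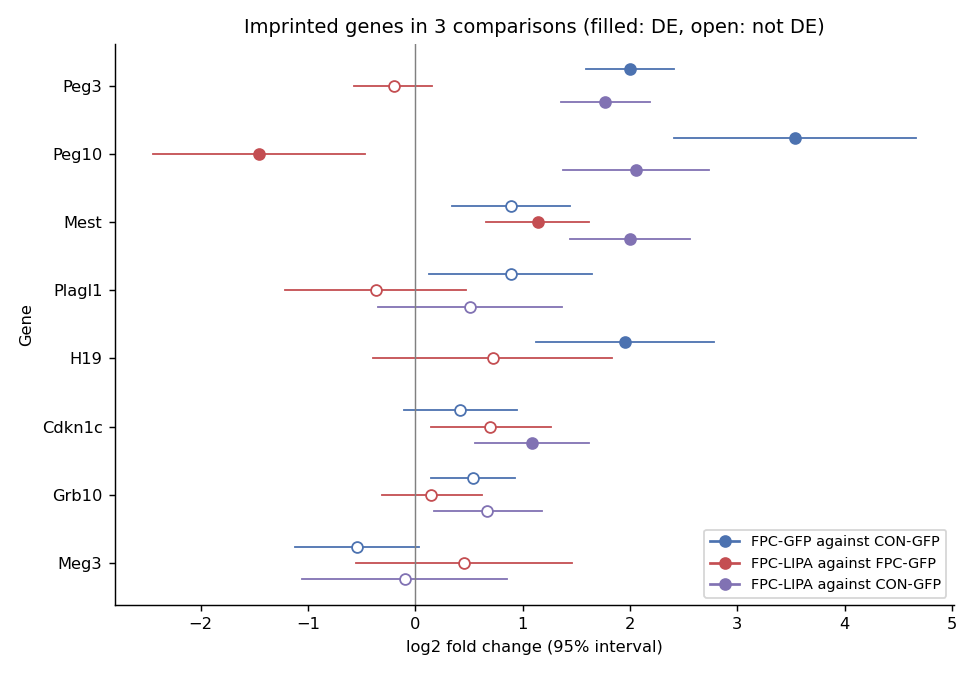
Log2 fold change (horizontal axis) of the 8 imprinted genes tested, in 3 comparisons shown by colour, with filled points for DE genes and bars for the 95% interval. Peg3, Peg10 and H19 are at 1.95 or above between FPC-GFP and CON-GFP, Mest and Peg10 are the filled points between FPC-LIPA and FPC-GFP, on opposite sides of 0, and H19 has no point between FPC-LIPA and CON-GFP.

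Between FPC-LIPA and FPC-GFP, 2 of the 8 genes tested were DE, Mest higher and Peg10 lower in FPC-LIPA. DE genes made up 11.4% of 14620 tested genes, and those with a higher level in FPC-LIPA 10.3%. Groups without overlap were found for 1 of the 8 genes, Mest, and for 7.58% of all tested genes. Of the 8 genes, 5 had a positive log2 fold change, with a median of 0.30 against 0.04 over all tested genes. The FPC-GFP livers enter both this comparison and that with CON-GFP, so their noise has opposite signs in the 2 sets of fold changes.

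Mest encodes a protein of the hydrolase family that is known to rise in adipose tissue as fat stores expand. It had 0.856, 1.87, 1.34, 1.66, 2.60 and 1.89 CPM in the CON-GFP livers, 2.87, 3.94, 2.27, 3.46, 4.32 and 2.20 CPM in FPC-GFP, and 5.73, 7.70, 5.74, 7.97, 9.45 and 5.55 CPM in FPC-LIPA. The FPC-LIPA livers were all above the FPC-GFP livers, while CON-GFP 7 overlapped with FPC-GFP 13 and 20. The mean was 1.70 ± 0.587 CPM, 3.18 ± 0.877 CPM and 7.02 ± 1.59 CPM in the 3 groups. The log2 fold change was 0.89 (SE 0.26, interval 0.34 to 1.44) between FPC-GFP and CON-GFP, which was not DE, and 1.14 (SE 0.23, interval 0.66 to 1.62) between FPC-LIPA and FPC-GFP. Mest was 4.0-fold higher in FPC-LIPA than in CON-GFP (log2 fold change 2.00, SE 0.26). In FPC-LIPA 31, 33 and 34 alone, the libraries with lower ribosomal protein shares, the log2 fold change against FPC-GFP was 1.01 (SE 0.24), and with sample sheet numbers 55 to 68 it was 0.95 (SE 0.22), neither of which was DE. Mest was also not DE against FPC-GFP when counts were scaled by library size alone, without TMM. Mest shares 912 exon bases (23.1% of its exons) with Copg2 on the other strand, which is itself imprinted in the mouse, and the strand setting of the counts is not given in the sources used here. Copg2 had 27.8 ± 2.68 CPM, 23.4 ± 3.68 CPM and 23.5 ± 3.79 CPM in the 3 groups, and was not higher in either FPC group.

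Cdkn1c encodes p57, an inhibitor of cyclin-dependent kinases that holds cells out of division. It had 1.79, 1.03, 1.27, 2.17, 1.26 and 1.76 CPM in the CON-GFP livers, 1.21, 1.82, 1.63, 2.44, 2.79 and 2.67 CPM in FPC-GFP, and 2.96, 2.52, 2.55, 4.26, 4.37 and 3.79 CPM in FPC-LIPA. FPC-GFP overlapped with both other groups, and FPC-LIPA did not overlap with CON-GFP. The log2 fold change was 0.42 (SE 0.25) between FPC-GFP and CON-GFP, 0.70 (SE 0.26) between FPC-LIPA and FPC-GFP and 1.09 (SE 0.25, interval 0.56 to 1.62) between FPC-LIPA and CON-GFP. The 3 highest livers, FPC-LIPA 36, 37 and 39, were those with the highest ribosomal protein shares, and the part of that share was not tested. Without them the log2 fold change was 0.36 against FPC-GFP and 0.78 against CON-GFP, where Cdkn1c was then not DE.

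The other 3 genes tested, Grb10, Plagl1 and Meg3, were not DE in any comparison. Grb10, an adaptor protein that dampens signalling of the insulin and IGF1 receptors, ranged from 1.61 to 2.64 CPM in CON-GFP (median 2.26), from 2.44 to 3.90 CPM in FPC-GFP (median 3.29) and from 2.31 to 4.57 CPM in FPC-LIPA (median 3.40). All groups overlapped, and the log2 fold change was 0.54 (SE 0.18, interval 0.15 to 0.93) between FPC-GFP and CON-GFP and 0.15 (SE 0.22) between FPC-LIPA and FPC-GFP. Plagl1, whose protein binds the motif shown in the Peg3 window, ranged from 0.244 to 0.967 CPM in CON-GFP (median 0.620), from 0.602 to 2.00 CPM in FPC-GFP (median 1.03) and from 0.316 to 1.36 CPM in FPC-LIPA (median 0.973). Its log2 fold change was 0.89 (SE 0.36) between FPC-GFP and CON-GFP and -0.37 (SE 0.40) between FPC-LIPA and FPC-GFP, with overlap in each. Meg3, the noncoding RNA beside Dlk1, was the only one of the 8 with a lower mean in FPC-GFP than in CON-GFP. It ranged from 0.559 to 0.946 CPM in CON-GFP (median 0.713), from 0.271 to 0.698 CPM in FPC-GFP (median 0.474) and from 0.183 to 1.38 CPM in FPC-LIPA (median 0.551). The log2 fold change was -0.54 (SE 0.27, interval -1.12 to 0.03) between FPC-GFP and CON-GFP, and in FPC-LIPA the livers spread over both other groups (CV 72.7%).

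Between FPC-LIPA and CON-GFP, 4 of the 7 genes tested were DE, Peg3, Mest, Peg10 and Cdkn1c, all higher in FPC-LIPA and all without overlap. DE genes made up 15.1% of 14433 tested genes, DE genes with a higher level in FPC-LIPA 11.8%, and genes without overlap 11.1%. The median log2 fold change of the 7 genes was 1.09 against 0.04 over all tested genes, and 6 were positive. The middle 90% of all tested genes ran from -0.91 to 1.69, so that Peg10, Mest and Peg3 lay above it and Cdkn1c within it.

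These differences were set beside those of other imprinted genes. A list of 24 paternally and 24 maternally expressed imprinted genes in the count table was tested in the same fits. Whether each of them is imprinted in adult liver was not tested. Between FPC-GFP and CON-GFP, 24 of the 48 were tested, 9 had a positive log2 fold change, the median was -0.06, and 1 (4.17%) was DE. Between FPC-LIPA and FPC-GFP it was 3 of 26 (11.5%, median 0.01), and between FPC-LIPA and CON-GFP 3 of 25 (12.0%, median -0.09). The shares of DE genes in the wider list were thus near those of all genes (7.20%, 11.4% and 15.1%). Slc38a4, an amino acid transporter gene, had the highest level among them, with 645 ± 155 CPM, 522 ± 123 CPM and 493 ± 98.3 CPM in CON-GFP, FPC-GFP and FPC-LIPA, and Cd81, a gene of the Cdkn1c domain, had 274 ± 31.0 CPM, 282 ± 28.7 CPM and 283 ± 54.8 CPM. Neither was DE in any comparison.

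**Figure D3:**
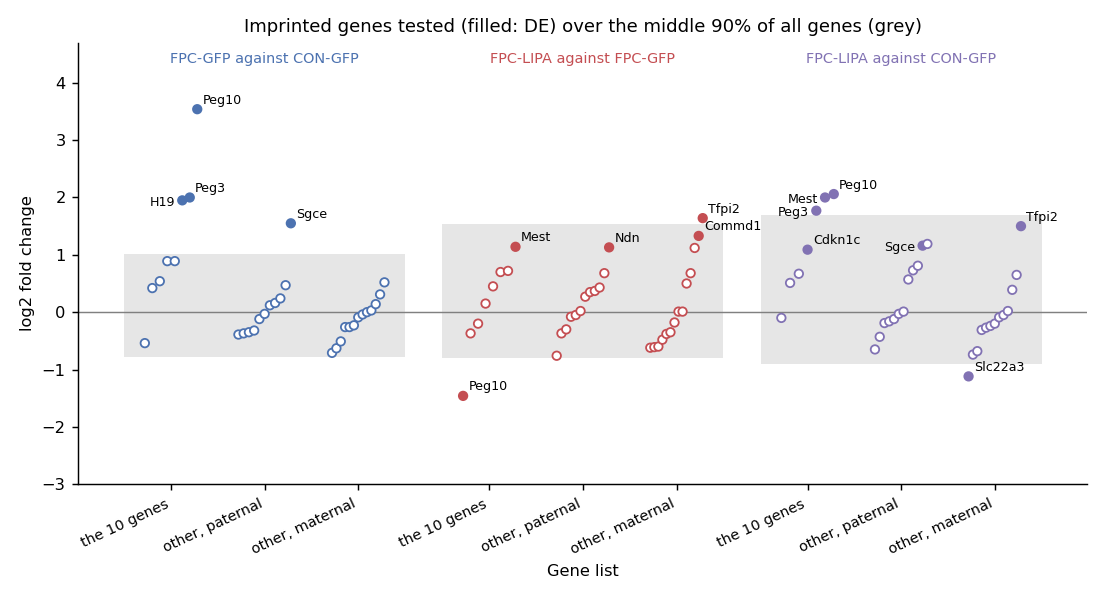
Log2 fold change (vertical axis) of each tested imprinted gene in 3 comparisons, for the 10 genes and for the other paternally and maternally expressed genes, with filled points for DE genes and the middle 90% of all tested genes in grey. Most open points of the other imprinted genes lie within the grey area on either side of 0, and Sgce is the single filled point among them between FPC-GFP and CON-GFP, at 1.55.

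The single other imprinted gene that was DE between FPC-GFP and CON-GFP was Sgce (ENSMUSG00000004631, chromosome 6, 4674350 to 4747207), which encodes epsilon-sarcoglycan, a membrane protein. Sgce is the neighbour of Peg10, read in the opposite direction, and the annotated starts of the 2 genes are 99 bases apart. Its level was 2.16, 2.64, 3.99, 5.56, 3.47 and 3.68 CPM in the CON-GFP livers, 10.2, 9.25, 10.6, 10.4, 13.1 and 10 CPM in the FPC-GFP livers and 9.26, 7.23, 8.54, 8.73, 7.46 and 7.81 CPM in FPC-LIPA. Both FPC groups were above CON-GFP in every liver. Sgce rose 2.93-fold between CON-GFP and FPC-GFP (log2 fold change 1.55, SE 0.19, adjusted p = 0.000189 by edgeR) and 2.23-fold between CON-GFP and FPC-LIPA (1.16, SE 0.22, adjusted p = 0.00189). Between FPC-LIPA and FPC-GFP its log2 fold change was -0.37 (SE 0.15, adjusted p = 0.0831). FPC-GFP 11, in which Peg10 was highest, had an ordinary level of Sgce (10.2 CPM). With sample sheet numbers 55 to 68, the log2 fold change of Sgce against CON-GFP was 1.36 in FPC-GFP and 0.97 in FPC-LIPA, and the second was then under the fold minimum.

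In the same domain on chromosome 6, Tfpi2, a protease inhibitor gene listed as maternally expressed, rose between FPC-GFP and FPC-LIPA (log2 fold change 1.64, SE 0.47, adjusted p = 0.0287, edgeR) and between CON-GFP and FPC-LIPA (1.50, SE 0.48, adjusted p = 0.0343). The level was 454 CPM in FPC-LIPA 37 and 167 and 169 CPM in FPC-LIPA 36 and 39, while the 3 remaining FPC-LIPA livers had 38.5 to 73.3 CPM. Commd1 (1.33, SE 0.33, adjusted p = 0.0195), whose protein takes part in copper export, and the paternally expressed Ndn (1.13, SE 0.33, adjusted p = 0.0310), a neuronal growth suppressor gene, also rose between FPC-GFP and FPC-LIPA. Without FPC-LIPA 36, 37 and 39, the libraries with the highest ribosomal protein shares, the log2 fold changes against FPC-GFP were 0.16 for Tfpi2, 0.38 for Commd1 and 0.40 for Ndn, and none was DE. Leaving out FPC-LIPA 37 alone gave 0.97 for Tfpi2 and 0.97 for Commd1, neither DE. The call of Ndn was lost when any 1 of the 6 FPC-GFP libraries or of FPC-LIPA 36, 37 and 39 was left out (0.93 to 1.17), and that of Tfpi2 also when any of FPC-GFP 11, 12, 13, 16 and 20 or FPC-LIPA 36 and 39 was (1.61 to 1.64). Against CON-GFP, the call of Tfpi2 was lost when any of CON-GFP 1, 3, 6, 7 and 8 or FPC-LIPA 36, 37 and 39 was left out (0.86 to 1.55). Slc22a3, an organic cation transporter gene, was lower in FPC-LIPA (2.62 ± 0.367 CPM) than in CON-GFP (5.60 ± 1.69 CPM) (log2 fold change -1.12, SE 0.22, adjusted p = 0.00302), without overlap, although its log2 fold change was -0.97 and under the fold minimum when CON-GFP 3 was left out. Around the other genes of the 10, Usp29 beside Peg3 and Rtl1 beside Dlk1 were at 0 counts in all libraries, and Zim1 beside Peg3 had at most 12 counts.

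The partners of these genes in IGF and Notch signalling were tested as a list of 19 genes, of which 16 passed the filter. Between FPC-GFP and CON-GFP, 1 was DE and higher and 1 was DE and lower, with a median log2 fold change of -0.05. Igf1, the growth factor that the adult liver makes for the circulation, fell with the FPC diet, to 289 ± 53.9 CPM from 669 ± 171 CPM (log2 fold change -1.22, SE 0.18, adjusted p = 0.000471 by edgeR), with no overlap between the groups. It was 307 ± 72.4 CPM in FPC-LIPA (-1.17 against CON-GFP, SE 0.22, adjusted p = 0.00183). Igf2bp2, which encodes a protein that binds Igf2 mRNA, rose in FPC-GFP (1.34, SE 0.42, adjusted p = 0.0317), with 12.3 CPM in FPC-GFP 11 against at most 5.40 CPM in the other FPC-GFP livers. Without FPC-GFP 11 its log2 fold change was 0.79 and it was not DE, and leaving out CON-GFP 1, 2, 6 or 8 or FPC-GFP 19 (1.19 to 1.37) also ended the call. The other RNA-binding genes of that family, Igf2bp1 and Igf2bp3, had at most 2 and 4 counts per library.

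Between FPC-LIPA and FPC-GFP, the single DE gene of the 16 partners was Igfbp6, an IGF binding protein gene that rose (log2 fold change 1.61, SE 0.46, adjusted p = 0.0287, edgeR). Between FPC-LIPA and CON-GFP, 2 rose and 3 fell. Those that rose were Igfbp3 (1.04, adjusted p = 0.00133), the main carrier of IGFs in blood, and Hes1 (1.35, adjusted p = 0.00138), a target of Notch. Apart from Igf1, those that fell were Igfbp4 (-1.07, adjusted p = 0.00308), another binding protein, and Igfals (-1.62, adjusted p = 0.00230), which keeps IGFs in the circulating complex. The log2 fold change of Igfbp3 was under the fold minimum when CON-GFP 2 (0.98), CON-GFP 3 (0.94) or FPC-LIPA 36 (0.96) was left out, and that of Igfbp4 when FPC-LIPA 37 was (-0.98). It was also under the minimum without FPC-LIPA 36, 37 and 39 (0.89 for Igfbp3, -0.88 for Igfbp4) and with sample sheet numbers 55 to 68 (0.97 and -0.99), and for Igfbp4 with library size alone (-0.95). The call of Igfbp6 was lost when any of FPC-GFP 12, 13, 19 and 20 or FPC-LIPA 31 and 36 was left out (1.31 to 1.67), without FPC-LIPA 36, 37 and 39 (1.97) and with sample sheet numbers 55 to 68 (1.52). Of Insr, the insulin receptor gene whose signal Grb10 dampens, the log2 fold change was -0.34 (SE 0.11) in FPC-GFP and -0.66 (SE 0.15) in FPC-LIPA against CON-GFP, under the fold minimum.

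Genes of the fetal liver and their regulators were also listed, since H19 is known as one of the genes that the liver silences after birth, under repressors such as Zhx2. Of 9 genes, 6 were tested, and none was DE in the 3 comparisons by edgeR. At an unadjusted p under 0.05 there were 1, 3 and 1 genes in FPC-GFP against CON-GFP, FPC-LIPA against FPC-GFP and FPC-LIPA against CON-GFP, and DESeq2 called 0, 1 and 0. Between FPC-GFP and CON-GFP, 4 of the 6 had a positive log2 fold change, with a median of 0.22 against 0.01 over all tested genes. The value was 0.44 (SE 0.46) for Gpc3, a cell surface proteoglycan gene of fetal liver, and 0.38 (SE 0.22) for Hmga1, a chromatin protein gene. Afp, the fetal albumin-like gene, had 1.48 ± 0.286 CPM, 0.939 ± 0.319 CPM and 1.47 ± 0.653 CPM in CON-GFP, FPC-GFP and FPC-LIPA, with a log2 fold change of -0.66 (SE 0.26) in FPC-GFP against CON-GFP. For Zbtb20, a repressor of Afp, the log2 fold change was -0.37 (SE 0.18), and for Zhx2 it was 0.26 (SE 0.13), in FPC-GFP against CON-GFP. Between FPC-LIPA and FPC-GFP, 4 of the 6 tested genes had a negative log2 fold change, with a median of -0.52 against 0.04 over all tested genes. Zhx2 had 10.6 ± 0.516 CPM, 12.8 ± 2.51 CPM and 7.53 ± 2.97 CPM in CON-GFP, FPC-GFP and FPC-LIPA. Lin28a, Lin28b and Hmga2 had at most 3 counts in every library.

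Of 15 genes that set or keep imprinting marks, 12 were tested. Uhrf1, which brings the maintenance methyltransferase to newly copied DNA and is most active in dividing cells, rose with the FPC diet, to 2.01 ± 1.06 CPM from 0.467 ± 0.252 CPM (log2 fold change 2.11, SE 0.40, adjusted p = 0.00249, edgeR) and to 1.75 ± 0.440 CPM in FPC-LIPA (1.88, SE 0.37, adjusted p = 0.00258). Both FPC groups lay above all CON-GFP livers. Dnmt3b, a methyltransferase that acts on unmarked DNA, fell in FPC-GFP (-1.09, SE 0.33, adjusted p = 0.0277) and FPC-LIPA (-1.32, SE 0.42, adjusted p = 0.0336), with overlap, and its call was lost in FPC-GFP without CON-GFP 1, 6 or 7 or FPC-GFP 11, 13, 19 or 20 (-1.07 to -0.94) and in FPC-LIPA without CON-GFP 1, 6 or 7 or FPC-LIPA 31, 37 or 39 (-1.31 to -1.22). Without FPC-LIPA 36, 37 and 39 the log2 fold change of Dnmt3b in FPC-LIPA was -0.82, and with sample sheet numbers 55 to 68 it was -1.01 in FPC-GFP and -1.29 in FPC-LIPA, none of them DE. None of the 12 was DE between FPC-LIPA and FPC-GFP by edgeR or DESeq2, with 3 at an unadjusted p under 0.05. The genes of this list with the highest levels, Zfp445 and Trim28, which protect imprints in the embryo, were not DE.

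Markers of several cell types, hepatocytes included, differed between the same groups. Of 10 macrophage and leukocyte markers, all tested, 5 rose between CON-GFP and FPC-GFP (Adgre1, Clec4f, Csf1r, Vsig4 and Timd4) and 3 between FPC-GFP and FPC-LIPA (Ptprc, Adgre1 and S100a8). The calls of Clec4f, Vsig4 and Timd4 were lost when FPC-GFP 19 was left out (0.91 to 1.0), that of Vsig4 also without CON-GFP 1 (0.99), and that of Clec4f also without CON-GFP 1, CON-GFP 2 or FPC-GFP 12 (0.91 to 0.98). In FPC-LIPA 37, Ptprc was 76.5 CPM against 14.5 to 22.4 CPM in the other FPC-LIPA livers, and Adgre1 was 160 CPM against 23.2 to 66.5 CPM. Without FPC-LIPA 37 the log2 fold change against FPC-GFP was 1.06 in place of 1.67 for Ptprc and 1.21 in place of 1.77 for Adgre1, and both remained DE, but with sample sheet numbers 55 to 68 (1.05 and 1.18) neither was. S100a8 was 4.02, 6.91 and 4.42 CPM in FPC-LIPA 36, 37 and 39 and 0.518 to 1.20 CPM in FPC-LIPA 31, 33 and 34, and without the first 3 its log2 fold change was 1.16 in place of 2.90 and it was not DE. Of these 10 markers, 2 had a negative log2 fold change in FPC-GFP against CON-GFP (median 0.8) and 1 in FPC-LIPA against FPC-GFP (median 0.92). The 10 markers summed to 88.3 to 180 CPM in the CON-GFP livers, 233 to 367 CPM in FPC-GFP and 288 to 606 CPM in FPC-LIPA, so that FPC-GFP did not overlap with CON-GFP. Clec4f had the highest mean of these markers in each group (68.5, 139 and 195 CPM) and weighed most in that sum. Of 11 stellate and mesenchymal markers, Col1a1 and Col3a1 rose in FPC-GFP, and Col3a1 rose again between FPC-GFP and FPC-LIPA (log2 fold change 1.70, SE 0.40), where it was 1.05 without FPC-LIPA 37 and, not DE, 0.73 without FPC-LIPA 36, 37 and 39. Of the 11, 5 had a negative log2 fold change in FPC-GFP against CON-GFP (median 0.13) and 6 in FPC-LIPA against FPC-GFP (median -0.13). The summed level was 213 to 358 CPM in the CON-GFP livers, 276 to 358 CPM in FPC-GFP and 377 to 1206.1 CPM in FPC-LIPA. Dcn (256 CPM) and Col3a1 (150 CPM) had the highest FPC-LIPA means of the 11 and weighed most in that sum. Of 8 endothelial markers, Cdh5 rose in FPC-GFP, and the sums were 145 to 227 CPM, 202 to 255 CPM and 238 to 357 CPM. Of 7 hepatocyte markers Serpina1c fell in each comparison, though its call was lost in FPC-GFP against CON-GFP without CON-GFP 1 (-0.99) or FPC-GFP 19 (-0.95), and in FPC-LIPA against FPC-GFP without any of FPC-GFP 11, 12, 13 and 20 or FPC-LIPA 31, 36, 37 and 39 (-1.04 to -0.86), and the sums were 71132.8 to 103445.5 CPM, 61180.3 to 87864.1 CPM and 48458.5 to 74973.1 CPM. Alb had the highest mean of the hepatocyte markers and weighed most in the sums. Between FPC-LIPA and CON-GFP, where 15.1% of all tested genes were DE, 3 of the 7 hepatocyte markers fell, Serpina1c, Hnf4a and Cyp2e1. Of the 7, 6 had a negative log2 fold change there (median -0.98). In that comparison 7 macrophage and leukocyte, 2 stellate and mesenchymal and 2 endothelial markers were DE and higher. No marker of these 4 lists was at or under 3 counts throughout a group. The part that the makeup of the liver has in the levels of Peg3, Peg10, H19, Mest and Cdkn1c was not tested.

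Of 7 cholangiocyte and progenitor markers, 6 were tested and none was DE in FPC-GFP against CON-GFP by edgeR or DESeq2 (1 at an unadjusted p under 0.05). Their sum was 28.2 to 47.8 CPM in the CON-GFP livers, 41.5 to 108 CPM in FPC-GFP and 38.3 to 212 CPM in FPC-LIPA. Of 5 mesothelial markers, 4 were tested, and Krt8, a keratin that hepatocytes and bile duct cells also make, rose in FPC-GFP (log2 fold change 1.81, SE 0.40, adjusted p = 0.00517, edgeR), but was not DE by DESeq2. Krt8 was 1836.9 CPM in FPC-GFP 11, the liver that was also highest in Peg10, 299 to 444 CPM in the other FPC-GFP livers and 118 to 246 CPM in CON-GFP, and without FPC-GFP 11 its log2 fold change was 1.12 (SE 0.17), where it remained DE. Msln (log2 fold change 1.73, SE 0.51) and Gpm6a (2.36, SE 0.58) rose in FPC-LIPA against FPC-GFP. Gpm6a was 8.57 CPM in FPC-LIPA 37 and 3.62 CPM in FPC-LIPA 31 against 0.722 to 1.32 CPM in the other 4, and without FPC-LIPA 37 its log2 fold change was 1.57 (SE 0.43). Msln was 5.64, 3.11 and 1.92 CPM in FPC-LIPA 31, 33 and 34 and 0.639 to 1.19 CPM in the other 3, and its call was lost without FPC-LIPA 31 (1.22) or any of FPC-GFP 12, 13, 19 and 20 (1.55 to 1.71). The part of these genes in the level of Mest was not tested. Between FPC-GFP and CON-GFP, 3 of the 4 tested mesothelial markers had a negative log2 fold change and only Krt8 a positive one (median -0.38). The 5 mesothelial markers summed to 120 to 250 CPM in the controls, 302 to 1839.5 CPM in FPC-GFP and 283 to 423 CPM in FPC-LIPA. Nearly all of each sum was Krt8. Of 7 pancreas and adipose markers, 2 were tested, Cela1, an elastase gene, and Fabp4, a fatty acid binding protein gene of adipocytes and macrophages. Cela1 fell in FPC-GFP (12.9 ± 1.59 CPM against 48.5 ± 23.2 CPM in the controls, log2 fold change -1.92, SE 0.25, adjusted p = 0.000222 by edgeR) and rose between FPC-GFP and FPC-LIPA (1.66, SE 0.31, adjusted p = 0.0110), and without FPC-LIPA 36, 37 and 39 the second value was 0.78 and not DE. Fabp4 rose between FPC-GFP and FPC-LIPA, where Mest was also higher. The level of Fabp4 was 22.1 ± 12.3 CPM in FPC-GFP and 46.7 ± 16.2 CPM in FPC-LIPA (log2 fold change 1.08, SE 0.32, adjusted p = 0.0310, edgeR). Its call was lost without any of FPC-GFP 12, 13, 16, 19 and 20 or FPC-LIPA 36, 37 and 39 (0.91 to 1.06), and without those 3 FPC-LIPA livers together it was 0.65. The part of Fabp4 in the level of Mest was not tested. Adipoq and Plin1, the other adipose markers of the list, did not pass the filter and had their highest means in CON-GFP. The means were 0.797, 0.041 and 0.127 CPM for Adipoq and 0.362, 0.0358 and 0.109 CPM for Plin1 in CON-GFP, FPC-GFP and FPC-LIPA. The CON-GFP means were set mostly by the highest liver, at 4.4 CPM for Adipoq (group median 0.0815) and 1.82 CPM for Plin1 (group median 0.0746). Pnlip and Cpa1 were at or under 3 counts throughout, and the sums were 32.8 to 104 CPM, 24.1 to 59 CPM and 47.7 to 131 CPM in CON-GFP, FPC-GFP and FPC-LIPA.

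**Figure D4:**
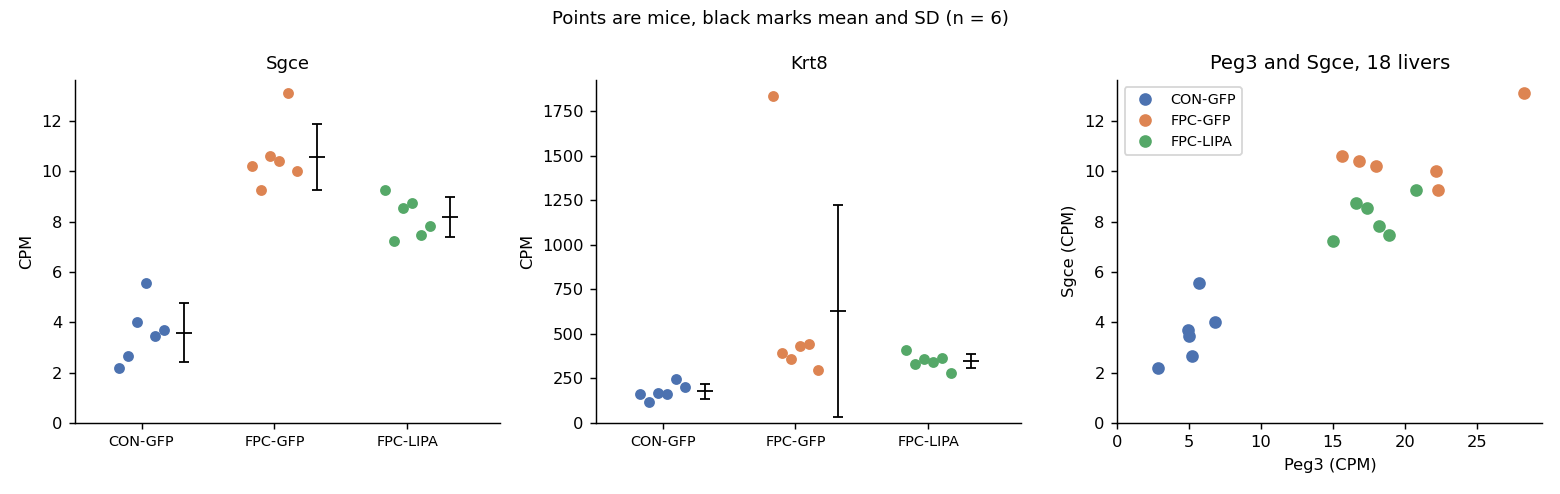
Level (CPM) of Sgce and of Krt8 in each liver by group, with the mean and SD of 6 mice in black, and at the right the level of Sgce against that of Peg3 in the 18 livers, coloured by group. Sgce is at or under 5.56 CPM in CON-GFP and at or above 7.23 CPM in both FPC groups, FPC-GFP 11 stands alone in Krt8 at 1836.9 CPM, and the CON-GFP points lie apart from the rest in the plot of Sgce against Peg3.

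For each gene averaging 1 CPM or more, the tested genes whose log2 CPM followed them most closely over the 18 libraries were listed, as a description. Peg3 was followed most closely by Mlkl, a gene of necroptosis (Pearson r = 0.95), by Sgce (r = 0.949), the neighbour of Peg10 on another chromosome, and by Csad (r = 0.936), a gene of taurine synthesis. When the mean of each group was taken off, r was 0.71, 0.64 and 0.07. For Mest the closest genes were Clic1 (r = 0.955), Sirpb1c (0.953) and Igsf6 (0.947), with 0.77, 0.78 and 0.65 after the group means were taken off. For Peg10 they were Pcbp3 (0.925), Ehd4 (0.913) and Krt8 (0.882), with 0.73, 0.61 and 0.69 after the group means were taken off and 0.889, 0.884 and 0.842 when FPC-GFP 11 was left out. Cdkn1c was closest to 1810064F22Rik (0.914), AI467606 (0.906) and Adamdec1 (0.904), and Grb10 to Trim35 (0.884), Cmklr1 (0.880) and Evl (0.869). The points share libraries, depth and group differences, and these were the highest of 14818 genes each.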

How the data were processed

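Liver RNA of 18 mice was sequenced. The authors trimmed the paired reads with Trimmomatic, mapped them with HISAT2 2.1.0 to GRCm38 (mm10) and assigned them to genes with Subread's Feature Counts, and the deposited table holds the resulting raw counts. Strand setting, annotation release and handling of reads that fit several genes are not given in the sources used here, and both an unstranded and a stranded kit are named. Groups came from the sample labels, and 5 of 23 columns were not used. The 10 genes, the other lists and the alternatives were chosen with earlier results of these data known.

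Each pair of groups was fitted alone (12 libraries) with filterByExpr, TMM and the quasi-likelihood test of edgeR 4.0.16 (limma 3.58.1, R 4.3.3), with Benjamini-Hochberg adjustment over all tested genes and a self-test on simulated data. DESeq2 1.42.0 was an alternative. Alternatives for the marker genes, and correlations without FPC-GFP 11, were added after seeing the data. The SE is the log2 fold change over the root of F. CPM is scaled by TMM over 18 libraries, log2 CPM uses a prior count of 2, and RPKM uses exon lengths of GENCODE M21. Genes named were the 10, every DE gene of the other lists, the 2 with the highest mean of each list, genes that overlap the 10, and the 3 genes most alike to each. Others (such as Afp, Insr, Usp29, Rtl1 and Zim1) were named after their values were seen, and of the marker lists only counts, sums and some DE genes are given. Tests of H19 with Igf2 and of Dlk1 with Meg3 were not run, since a median of 10 counts was not reached. Tables and figures were made with matplotlib 3.10.9, numpy 2.4.6 and pandas 2.3.3 under Python 3.11.15.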

Additional observations from a re-analysis of the deposited data

Results flagged for a closer look

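Of 24 sets of 6 livers (8 genes in 3 groups), 3 had a highest or lowest value set apart from the other 5 by Dixon's test, where chance gives about 1 in 20. That rate is for normally distributed values, which CPM from few counts need not be, and the genes were chosen with their values known. The 3 values are therefore listed as a description only. Peg10 was 12.7 CPM in FPC-GFP 11, against 4.50 CPM in the next highest liver of that group. Peg10 was 0.149 CPM in CON-GFP 3, the lowest of its group, from 4 counts. H19 was 1.68 CPM in FPC-GFP 19, against 0.873 CPM in the next highest FPC-GFP liver. Without FPC-GFP 11 the log2 fold change of Peg10 was 2.88 against CON-GFP, where it remained DE, and -0.79 for FPC-LIPA against FPC-GFP, where it was no longer DE.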

How the results depend on the processing

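Over all alternatives, 445 of 452 log2 fold changes of the 10 genes had the sign reported, none of the DE genes among them changed sign, and all 452 moved by less than the SD between mice. Leaving out 1 mouse can hardly move a value by that SD, so this limit does not show that the values are stable. Peg10 stayed within it between FPC-LIPA and FPC-GFP where its call was lost. In FPC-GFP against CON-GFP, library size alone and no fold minimum each gave 5 DE genes of the 10 in place of 3, no filter and no fold minimum each gave 3 DE among the other imprinted genes in place of 1, and no fold minimum gave 3410 DE genes in all in place of 1030. In FPC-LIPA against FPC-GFP, where 2 of the 10, 3 other imprinted genes and 1671 genes in all were DE, library size alone gave 1 of the 10 and 1016 in all, and removal of the length trend gave 1 of the 10. Mest was not DE with library size alone, and Peg10 was not DE with the length trend removed. Sample sheet numbers 55 to 68 gave 0, 0 and 96, leaving out FPC-LIPA 36, 37 and 39 gave 0, 0 and 116, and no fold minimum gave 3102 in all. With 1 library left out these 3 counts ran from 1 to 2, from 0 (FPC-LIPA 37 left out) to 5 (FPC-LIPA 33 left out), and from 856 (FPC-LIPA 36) to 2612 (FPC-LIPA 33). The call of Peg10 was lost there when any of FPC-GFP 11, 12, 13 and 19 and FPC-LIPA 31, 36, 37 and 39 was left out. In FPC-LIPA against CON-GFP, where 3 other imprinted genes and 2176 genes in all were DE, no filter and a fit of all 18 libraries each gave 5 other imprinted genes, sample sheet numbers 55 to 68 gave 1 and 1107 in all, and no fold minimum gave 6 and 3304. With 1 library left out the other imprinted genes ran from 1 (without CON-GFP 3) to 4. Of the 10 genes, 4 were DE between FPC-LIPA and CON-GFP, against 5 with no filter or a fit of all 18 libraries. Sample sheet numbers 55 to 68 and removal of the length trend each gave 3. Leaving out FPC-LIPA 36, 37 and 39 gave 4, although Cdkn1c was then not DE. Library size alone moves the median of all tested genes, and Mest and Plagl1 are DE between FPC-GFP and CON-GFP under it. Leaving out CON-GFP 7 gave 4 DE genes of the 10 between those groups in place of 3. No paired analysis was possible because the groups share no mouse numbers. Depth limits Igf2 (0 counts in all libraries) and Dlk1 (0 to 5 counts), which could not be tested, and H19 (2 to 9 counts per CON-GFP library).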
